A study of Mus musculus with 4 samples.

Results

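The genes described here encode 10 zinc finger or MYND domain proteins that the study recovered with the NuRD complex of mouse embryonic stem cells (ESCs): Sall1, Sall2, Sall3, Sall4, Zfp219, Zfp512b, Zfp532, Zfp687, Zfp592 and Zmynd8. They were chosen by name, because the study found their proteins in pulldowns of the NuRD subunit MBD3. The choice did not use their RNA level, but it was made with earlier results of these data known. Zfp512b was found under its older symbol Znf512b, and all 10 genes were present among the 48526 genes of the count files. RNA-seq was performed on 4 samples of R1 ESCs, an established mouse line, 2 of wild type (WT) cells and 2 of Zfp296 KO clone 2 (KO2). The study states that RNA was isolated in duplicate, and not whether the duplicates came from separate cultures. All cells were cultured on gelatine in serum with LIF and the inhibitors PD0325901 and CHIR99021. KO2 was made with a CRISPR-Cas9 guide against exon 1 of Zfp296 and is 1 monoclonal line, so the effect of the mutation and that of the clone cannot be told apart. Replicate numbers name samples, and nothing in the sources used here says that they came from separately derived lines, so that p-values measure the spread between these samples only.

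NuRD couples nucleosome remodelling by CHD proteins with histone deacetylation by HDAC1 and HDAC2 around a scaffold of MTA, GATAD2, RBBP and MBD subunits. It has little sequence preference of its own, and zinc finger proteins that bind both DNA and the complex can bring it to particular sites. The SALL proteins are such factors: they carry several pairs of C2H2 zinc fingers, and a short stretch at their N-terminus, which begins with methionine and a serine and goes on with Arg-Arg-Lys, is known to bind the RBBP subunits. ZMYND8, a reader of acetylated histones with a MYND domain, is known to form an assembly with ZNF687, ZNF592 and ZNF532 that contacts NuRD. ZFP219 is a C2H2 repressor, and ZNF512B is a C2H2 protein that also binds NuRD.

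The first 30 coding bases are shown because they separate the SALL genes from the other members. Capitals mark the codons for Arg-Arg-Lys, and the coordinates are those of mm9 (NCBIM37, GENCODE M1). Each stretch lies within the first coding exon.
Sall1, chr8:91566297-91566326, minus strand: atgtcgCGGAGGAAGcaagcgaagcctcaa
Sall2, chr14:52947821-52947850, minus strand: atgtctCGGCGAAAGcaacggagaccccaa
Sall4, chr2:168592500-168592529, minus strand: atgtcgAGGCGCAAGcaggcgaagccccag
Zfp296, chr7:20162731-20162760, plus strand: atgtccCGCCGCAAGgccggccgcgtgcct
Zfpm1, chr8:124806383-124806412, plus strand: atgtccAGGAGGAAAcagagcaatccccgg

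In all 4 SALL genes, Sall3 included, the Arg-Arg-Lys codons stood at codons 3 to 5 of at least 1 annotated transcript. The codons themselves differed between Sall1, Sall2 and Sall4, whose bases are shown above. Zfp296, the gene mutated in KO2, held the Arg-Arg-Lys codons at the same place. So did all 7 other zinc finger genes listed here for their known binding to NuRD (Zfpm1, Zfpm2, Zfp827, Bcl11a, Bcl11b, Zfp423 and Zfp521). This list was made by hand, and the study names the motif in FOG1 (gene Zfpm1) and ZNF827 (gene Zfp827). The 7 matches of the list are therefore no independent support for a link of the motif with NuRD. None of the other 6 members had Arg-Arg-Lys within the first 20 codons of any annotated coding transcript. Among 21918 annotated coding genes, 191 (0.871%) had it within the first 20 codons and 35 (0.16%) at codons 3 to 5. A match describes these letters and does not show binding. A search of the translated proteins for the C2H2 pattern (C, 2 to 4 residues, C, 12 residues, H, 3 to 5 residues, H) found 9 matches in Sall1, 7 in Sall2, 7 in Sall3, 8 in Sall4, 9 in Zfp219, 4 in Zfp512b, 4 in Zfp532, 9 in Zfp687, 8 in Zfp592 and 0 in Zmynd8.

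The count files held 2829914 and 4334499 gene counts for WT replicates 1 and 2, and 7470907 and 7437294 for KO2 replicates 1 and 2. A count of 3 corresponded to 1.12, 0.709, 0.38 and 0.401 CPM in these libraries, where CPM is the count scaled to counts-per-million after TMM normalisation between samples. The summed level of 8 ESC markers was 5677 to 6108 CPM in the 4 libraries. The sums of the marker lists for other cell types were 87.0 to 122.0 CPM for neural progenitors, 0.945 to 8.20 CPM for primitive endoderm, 2.41 to 6.95 CPM for mesoderm and 0.373 to 1.89 CPM for fibroblasts, and Olig2, T and Dcn of these lists had no count in any library. Nes made up most of the neural progenitor sum and was higher in both KO2 libraries (97.6 and 86.5 CPM in WT, 113.5 and 120.3 CPM in KO2, log2 fold change 0.35, adjusted p = 0.158 by edgeR), and Pax6 was counted 0, 1, 13 and 6 times in the same order. Slc1a3, also of the neural progenitor list, was counted 7, 1, 0 and 6 times. Eomes had 7, 29, 16 and 50 counts. Of the fibroblast list, Col1a1 had 1, 1, 6 and 2 counts and Col1a2 had 0, 7, 1 and 0. The lines differed in more than Zfp296: the Y-linked genes Ddx3y, Eif2s3y, Uty and Kdm5d summed to 0 and 0.236 CPM in the WT libraries and to 600.1 and 685.2 CPM in the KO2 libraries. R1 is known as a male line, so the libraries labelled WT did not show the Y-linked RNA that this label implies, and directions below are those of the libraries labelled WT and KO2. Zfp296 was counted 31 and 31 times in WT, 416 and 282 times in KO2 (11.6, 7.33, 52.8 and 37.7 CPM), so its RNA was higher in the libraries labelled KO2 (log2 fold change 2.31, SE 0.284, adjusted p = 4.55e-05 by the quasi-likelihood test of edgeR). The counts cover the whole gene and a small mutation in exon 1 would leave its transcript countable, so they do not check the knockout. The study itself checked its Zfp296 KO clones by sequencing and by mass spectrometry. It states that unequal ZFP296 depletion in its KO lines may explain part of the variance between them in ChIP-seq. What part the differences between WT and KO2 in Y-linked and Zfp296 RNA had in the values below was not tested.

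The comparison of KO2 with WT asked whether the RNA of the NuRD partners differed between the lines. None of the 10 genes passed the test, in either direction, in a fit over all 12883 tested genes (edgeR quasi-likelihood test with Benjamini-Hochberg adjustment, adjusted p under 0.05). In the same fit 727 genes were called, which is 5.64% of those tested, with 2.61% higher and 3.04% lower in KO2. At an unadjusted p under 0.05 there were 2 members, Zfp512b and Zfp532, both lower in KO2, against 19.4% of all tested genes. DESeq2 called none of the members either. The log2 fold change was below 0 for 7 members and above 0 for 3, with a median of -0.23 beside 0.01 over all tested genes, and the median of its size was 0.30 beside 0.27. The values of the WT and KO2 libraries did not overlap for 7 members, 5 of them lower in KO2 (Sall1, Sall2, Sall3, Zfp512b and Zfp532) and 2 higher (Sall4 and Zfp687). Over all tested genes 48.8% did not overlap, 23.4% lower and 25.4% higher in KO2. For a single gene, an exact two-sided permutation test of 2 samples against 2 cannot go below p = 0.333. In bulk RNA, fewer cells of a type and less RNA per cell cannot be told apart.

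**Figure D1:**
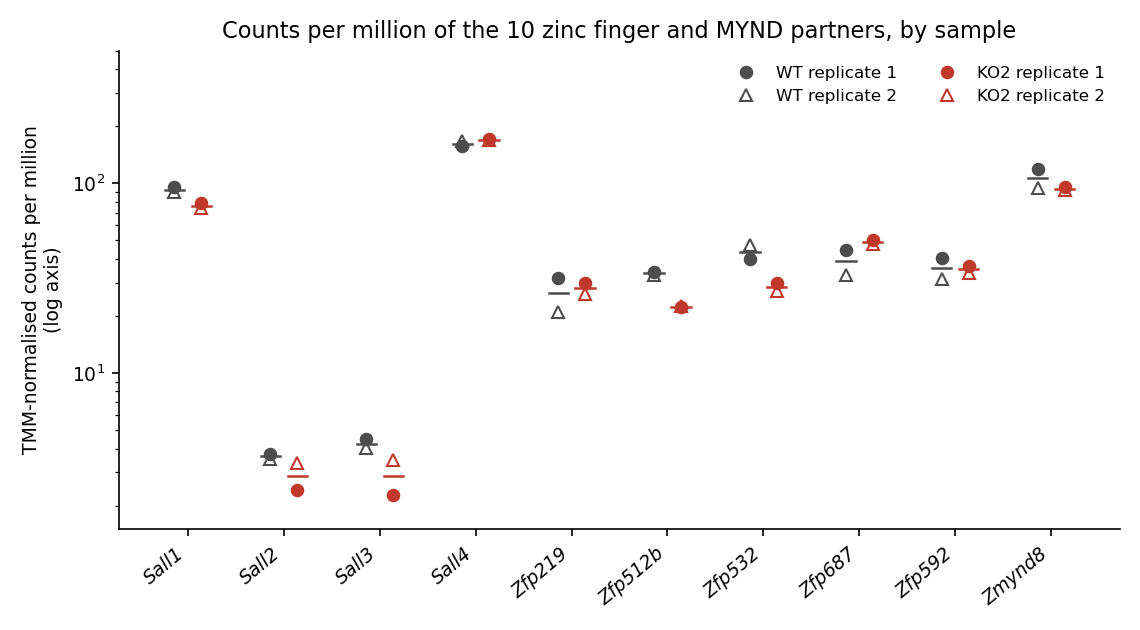
TMM-normalised CPM (log axis) of the 10 genes in each library, with circles for replicate 1, triangles for replicate 2 and a short line at the group mean (n = 2). The lowest pair of genes, Sall2 and Sall3, sits at 2.28 to 4.47 CPM, and Sall4 is highest at 157.6 to 170.4 CPM.

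Of the SALL family, Sall4 and Sall1 carried most of the RNA. Sall4, a factor known from ESCs, was covered by 423 and 705 reads in WT, 1344 and 1265 in KO2. That is 157.6, 166.6, 170.4 and 169.1 CPM. Both KO2 values were above both WT values, but the higher WT replicate was nearer to them than to the other WT replicate. Its log2 fold change was 0.07 (SE 0.119, adjusted p = 0.831), and the 95% interval of the fold ran from 0.880 to 1.24. Sall1, a gene needed for kidney development, was measured with 257, 379, 618 and 556 counts, or 95.8 and 89.6 CPM in WT and 78.4 and 74.3 CPM in KO2. The KO2 libraries were both below the WT libraries, with a mean of 76.3 ± 2.86 CPM (SD, n = 2) against 92.7 ± 4.40 CPM (SD, n = 2). The log2 fold change of -0.28 (SE 0.141) did not pass the test (adjusted p = 0.295), and its 95% interval reached from -0.57 to 0.02. Sall4 lies on chromosome 2 (168573832 to 168593443, minus strand) and Sall1 on chromosome 8 (91551147 to 91568061, minus strand). An exon of Gm14261 on the opposite strand overlaps Sall4.

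Sall2 and Sall3, the members of the family known mainly from neural tissue, were close to the limit of these libraries. Sall2 (chromosome 14, 52930847 to 52948437, minus strand) was counted 10 and 15 times in WT, 19 and 25 times in KO2, giving 3.73, 3.54, 2.41 and 3.34 CPM. Sall3 (chromosome 18, 81163115 to 81183317, minus strand) was counted 12 and 17 times in WT, 18 and 26 times in KO2, giving 4.47, 4.02, 2.28 and 3.48 CPM. In both genes KO2 replicate 1 was the lowest library and KO2 replicate 2 lay just under the WT values. The log2 fold changes were -0.33 for Sall2 (SE 0.597, adjusted p = 0.827) and -0.55 for Sall3 (SE 0.581, adjusted p = 0.671). The 95% intervals, -1.59 to 0.92 and -1.77 to 0.67, were the widest of the 10. Changes in either direction were compatible with the counts at this depth.

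Among the genes of the ZMYND8 group, Zfp532 had the lowest log2 fold change of the members as reported, though Sall3 was lower with thinning (-0.78 against -0.74) and without WT replicate 2 (-0.64 against -0.49) or KO2 replicate 2 (-0.88 against -0.56). Zfp532, a C2H2 protein (chromosome 18, 65739884 to 65849088, plus strand), had counts of 107 and 200 (WT) and of 236 and 202 (KO2), giving 39.9, 47.3, 29.9 and 27.0 CPM. Both KO2 libraries were below both WT libraries by more than either pair of replicates differed. The log2 fold change was -0.62 (SE 0.197), a fold of 0.649 with a 95% interval of 0.487 to 0.865, and the unadjusted p of 0.00528 by edgeR became 0.0734 after adjustment over all tested genes. Zfp687 (chromosome 3, 94810512 to 94819370, minus strand) had 120, 139, 396 and 360 counts, or 44.7 and 32.8 CPM in WT and 50.2 and 48.1 CPM in KO2. Its log2 fold change was the highest of the members as reported, 0.36 (SE 0.191, adjusted p = 0.309, 95% interval -0.04 to 0.76). The WT replicates of Zfp687 were farther apart than the higher of them was from the KO2 libraries. An exon of Pi4kb on the opposite strand overlaps Zfp687.

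Zfp592, another zinc finger gene of the group (chromosome 7, 88138598 to 88190050, plus strand), had 109, 132, 290 and 251 counts, or 40.6, 31.2, 36.8 and 33.6 CPM. Both KO2 values lay between the WT values, and the log2 fold change was -0.01 (SE 0.204, adjusted p = 0.986, 95% interval -0.44 to 0.42). Zmynd8 itself (chromosome 2, 165609654 to 165724516, minus strand) had 319, 400, 754 and 689 counts, or 118.9 and 94.5 CPM in WT and 95.6 and 92.1 CPM in KO2. WT replicate 1 stood above the other libraries, and WT replicate 2 lay between the KO2 values. Its log2 fold change was -0.18 (SE 0.144, adjusted p = 0.553, 95% interval -0.48 to 0.12).

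Of the remaining pair, Zfp512b (chromosome 2, 181316808 to 181327508, minus strand) had counts of 92 and 139 (WT) and of 175 and 169 (KO2), giving 34.3, 32.8, 22.2 and 22.6 CPM. The replicates were close within each line, with WT at 33.6 ± 1.02 CPM and KO2 at 22.4 ± 0.282 CPM (SD, n = 2 each). The log2 fold change of -0.58 (SE 0.217) corresponded to a fold of 0.669 with a 95% interval of 0.488 to 0.917, with an unadjusted p of 0.0152 and an adjusted p of 0.137 (edgeR). The edgeR test takes its spread from all genes together with these replicates, so that a close pair of replicates alone does not pass it. Exons of Uckl1 on the same strand and of Gm16119 on the opposite strand overlap Zfp512b, and reads there could have been assigned to either gene or to none. Zfp219 (chromosome 14, 52625752 to 52640408, minus strand) had 85, 89, 235 and 196 counts, or 31.7 and 21.0 CPM in WT and 29.8 and 26.2 CPM in KO2. The WT replicates enclosed the KO2 values, and the log2 fold change was 0.12 (SE 0.241, adjusted p = 0.844, 95% interval -0.38 to 0.63). An exon of Arhgef40 on the opposite strand overlaps Zfp219, and the strand setting of the counting is not given in the sources used here.

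**Figure D2:**
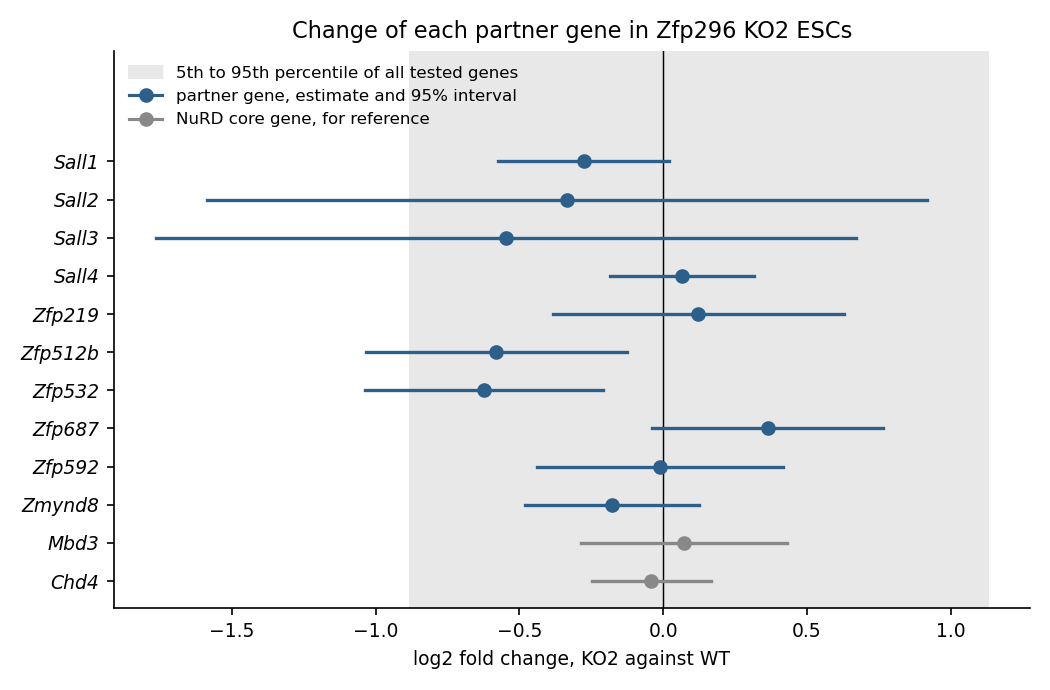
Log2 fold change of KO2 against WT for the 10 genes (blue) and for Mbd3 and Chd4 (grey), with points for the edgeR estimate and lines for its 95% interval. The grey band spans the 5th to 95th percentile of all tested genes (-0.88 to 1.13), and all 10 estimates lie inside it.

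**Figure D3:**
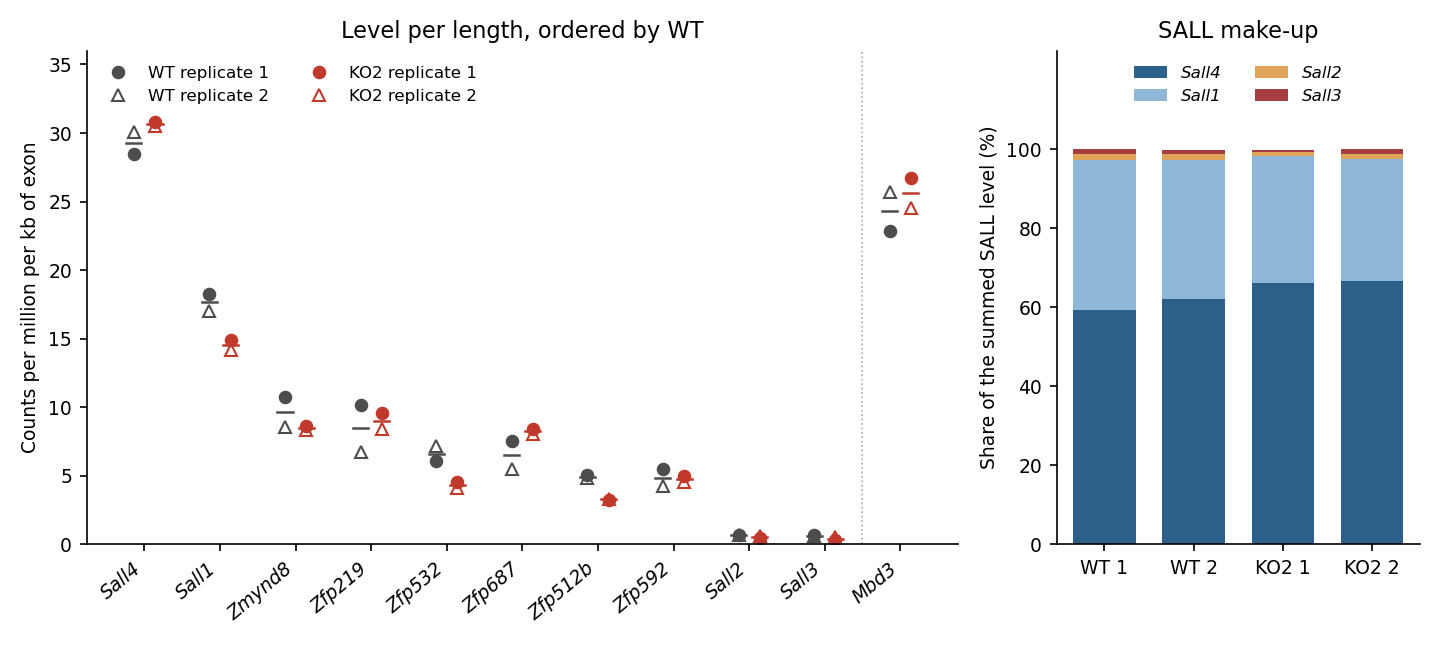
Left, CPM per kb of exon of each gene by library, ordered by the WT mean, with Mbd3 for reference (symbols as in the plot of CPM by sample). Right, the share of each SALL gene in the summed SALL level of each library, where Sall4 makes up 59.3% and 62.2% in WT and 66.2% and 66.7% in KO2.

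To compare levels between genes, CPM was divided by the kb of exon of each gene (all annotated exons merged). On this scale the WT order was Sall4, Sall1, Zmynd8, Zfp219, Zfp532, Zfp687, Zfp512b, Zfp592, Sall2 and Sall3. Sall4 stood at 29.3 ± 1.14 and Sall1 at 17.6 ± 0.838 CPM per kb, next to 24.3 ± 1.98 for Mbd3 and 106.5 ± 4.11 for Chd4, the NuRD scaffold and remodelling subunits (SD, n = 2 each). The middle 6 genes spanned 9.66 ± 1.56 for Zmynd8 to 4.86 ± 0.903 for Zfp592, and Sall2 and Sall3 stood at 0.669 ± 0.0237 and 0.616 ± 0.0467. With the length of the longest annotated transcript in place of merged exons, Zmynd8 stood at 17.2 CPM per kb in WT, level with Sall1 at 17.6, and Mbd3 at 29.0. Relative to Mbd3, and with merged exons, the mean level was 121.0% for Sall4, 73.0% for Sall1, 40.2% for Zmynd8 and 2.55% for Sall3 in WT.

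Neighbours in this order often did not differ beyond their spread. With a difference of means larger than the sum of the 2 SDs as the criterion, which was chosen after the levels had been seen, 4 of 9 neighbouring pairs were apart in WT with merged exons: Sall4 and Sall1, Sall1 and Zmynd8 (whose means were level with the longest transcript as length), Zfp687 and Zfp512b, and Zfp592 and Sall2. Ranges that did not overlap were found for 5 of 9 pairs in WT and 6 of 9 in KO2. The additional pairs were Sall2 and Sall3 in WT and Zfp592 and Zfp532 in KO2. Both were close to ties: the nearest values were 0.652 and 0.649 CPM per kb in WT, and 4.544 and 4.544 in KO2. With the longest transcript as length, Zfp532 was in rank 6 and Zfp592 in rank 7 in KO2. In KO2 the order was Sall4, Sall1, Zfp219, Zmynd8, Zfp687, Zfp592, Zfp532, Zfp512b, Sall2 and Sall3, with 5 of 9 pairs apart by the sum of SDs. Zfp532 was in rank 5 in WT at 6.62 ± 0.793 CPM per kb and in rank 7 in KO2 at 4.32 ± 0.314, and Zfp687 was in rank 6 at 6.52 ± 1.41 and in rank 5 at 8.26 ± 0.249 (SD, n = 2 each). The exons of Zmynd8 merge to 11041 bases while its longest annotated transcript has 6188, and with the latter length Zmynd8 was in rank 2 and Sall1 in rank 3 in KO2.

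The summed level of the 4 SALL genes was 48.1 and 48.4 CPM per kb in WT and 46.5 and 45.8 in KO2. Within it, Sall4 made up 60.7 ± 2.07% in WT and 66.5 ± 0.309% in KO2, and Sall1 36.6 ± 1.92% and 31.5 ± 0.859% (SD, n = 2 each). The shares of neither gene overlapped between the lines. Sall4 and Sall1 make up nearly all of the sum, so their shares mirror each other. The 2 shares and the ratio of Sall1 to Sall4 thus describe 1 difference. Sall2 and Sall3 each made up less: Sall2 was 1.39 ± 0.056% in WT and 1.15 ± 0.275% in KO2, and Sall3 was 1.28 ± 0.103% and 0.907 ± 0.275%. The ratio of Sall1 to Sall4 per length was 0.640 and 0.567 in WT and 0.485 and 0.463 in KO2. These shares and ratios are descriptions of genes that did not pass the test one by one, and they were not tested.

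For the ZMYND8 group the ratios per length are given as descriptions of genes that were not called. The ratio of Zfp532 to Zfp687 was 0.806 and 1.30 in WT and 0.539 and 0.507 in KO2. The ratio of Zmynd8 to Zfp687 was 1.43 and 1.55 in WT and 1.03 and 1.03 in KO2, and that of Zfp592 to Zfp687 was 0.732 and 0.766 against 0.590 and 0.562. All 3 have as denominator Zfp687, the member with the highest log2 fold change as reported, so that lower ratios in KO2 follow from that choice. The ratios to Zfp592 were 1.96, 2.03, 1.74 and 1.84 for Zmynd8 and 1.10, 1.70, 0.912 and 0.902 for Zfp532. These ratios share their denominators and were not tested.

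The log2 fold changes of the genes within 1 Mb of a member are given as a description. Around Zfp532 there were 6 tested genes with a median log2 fold change of 0.20, and all 6 lay above the -0.62 of Zfp532, as did 91.4% of all tested genes. Around Zfp512b, 26 of 27 tested genes lay above its -0.58, beside 90.4% of all tested genes, with a median of -0.10. Around Zfp687, 32 of 39 lay below its 0.36, beside 78.3% of all tested genes, with a median of 0.04. These counts were near what the value of each member fixes over all genes, and nothing is read from them. The medians around the other 7 members ran from -0.23 (Zfp219, 13 genes) to 0.13 (Zfp592, 35 genes), and those over their whole chromosomes were within -0.05 to 0.04. Sall2 and Zfp219 lie 0.29 Mb apart on chromosome 14, so their windows share genes, with log2 fold changes of -0.33 and 0.12.

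Among the genes of the complex itself, 14 of 15 listed core subunits were tested. Of these, 1 was higher and 2 were lower in KO2, beside 2.61% higher and 3.04% lower over all tested genes. At the protein level, the study reports no significant change of NuRD subunits in Zfp296 KO ESCs. The main figure of the study for this result shows another KO clone than KO2. Chd5, a CHD remodeller known mainly from neurons, was higher (log2 fold change 1.56, adjusted p = 0.0395), with 9, 21, 105 and 91 counts. Hdac2, a deacetylase of the complex, fell from 468.8 and 433.4 CPM in WT to 301.9 and 321.5 CPM in KO2 (log2 fold change -0.53, adjusted p = 0.00514), and the remodeller Chd3 from 64.1 and 49.9 to 28.0 and 32.9 CPM (log2 fold change -0.89, adjusted p = 0.00858). With at least 10 counts in every sample, Chd5 was not tested, because it had 9 counts in WT replicate 1. Its call was lost in 7 others of the 12 alternatives. These were DESeq2, ERCC spike-in scaling, no filter, thinning, and without WT replicate 1, WT replicate 2 or KO2 replicate 1. The calls of Hdac2 and Chd3 were lost in 3 of 12 (ERCC scaling, no filter, and without WT replicate 1). Mbd3 and Chd4, with log2 fold changes of 0.07 (SE 0.171) and -0.04 (SE 0.099), did not pass the test. The other zinc finger genes listed for their binding to NuRD gave 3 tested genes of 7 and no call. Of these, Zfpm1 had 5.22, 11.8, 15.7 and 16.7 CPM (log2 fold change 0.84, adjusted p = 0.207) and Zfp827 8.94, 8.98, 4.95 and 5.21 CPM (log2 fold change -0.82, adjusted p = 0.308). Zfpm2 and Bcl11a had no count in any library, which allows a level of up to 0.38 CPM in the deepest. Of the 8 pluripotency genes, Sox2 was called, lower in KO2 (log2 fold change -0.79, adjusted p = 7.84e-05), a call that was lost with ERCC scaling.

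**Figure D4:**
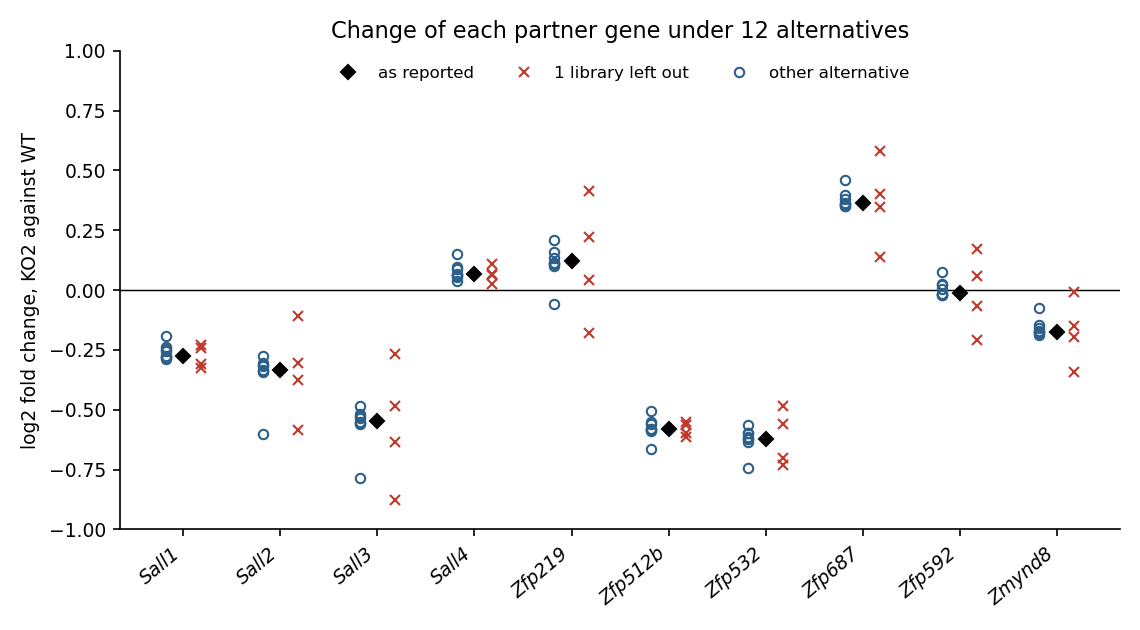
Log2 fold change of KO2 against WT of each gene as reported (diamonds), with 1 library left out (crosses, 4 per gene) and under the 8 other alternatives (circles). Zfp532 stays between -0.74 and -0.49 and Zfp512b between -0.67 and -0.50, while Zfp219 and Zfp592 lie on both sides of 0.

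Over 12 alternatives in scaling, filtering, tool, depth and libraries, none of the 10 genes was called in any of the 120 values, and the lowest adjusted p was 0.0608 (Zfp532 with RLE size factors). The log2 fold change kept its sign under every one of these alternatives for 8 members, all except Zfp219 and Zfp592. Zfp687 ranged from 0.14 to 0.58, Sall1 from -0.33 to -0.19, Sall4 from 0.03 to 0.15 and Zmynd8 from -0.34 to -0.01. Sall3 ranged from -0.88 to -0.27 and Sall2 from -0.60 to -0.11.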

How the data were processed

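RNA-seq libraries were made strand-specific from ribosomal RNA-depleted RNA. The authors aligned the reads with hisat2 to the mm9 genome, used HTSeq for counting and deposited raw counts for each sample without normalisation. The version of the tools, the annotation and the strand setting are not given in the sources used here. Reads on genes were 41.2% to 47.1% of those listed in the files, and 35.6% to 40.4% were not unique. The 97 rows without a gene (92 ERCC spike-ins and the HTSeq totals) were left out of library sizes.

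Genes were kept with filterByExpr (minimum count 10, minimum total 15), scaled by TMM and tested with the edgeR (4.0.16, R 4.3.3) quasi-likelihood test on the group alone, with Benjamini-Hochberg adjustment over 12883 genes and a threshold of 0.05. The study used DESeq2, which is an alternative here (1.42.0). The fit was tested on simulated data. All 10 members, Zfp296, every called gene of the lists, and Mbd3 and Chd4 were named; Zfpm1, Zfp827 and uncalled genes besides these were named after their values were seen. The members and lists were chosen with earlier results of these data known. Coordinates were taken from GENCODE M1, which gave positions for 32782 of 48526 genes. Intervals cover 95%, and floors, at 3 counts, cover counting error only.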

Additional observations from a re-analysis of the deposited data

How the results depend on the processing

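No member was called under any of the 12 alternatives. The sign turned for Zfp219 when libraries were thinned to the shallowest (-0.059) or WT replicate 2 was left out (-0.18; range with 1 library left out -0.18 to 0.41), and for Zfp592 with ERCC spike-in scaling (0.076), at least 10 counts in every sample (0.0061), no filter (0.023), thinning (0.026), without KO2 replicate 2 (0.06) and without WT replicate 1 (0.17; range -0.21 to 0.17). The cause was not tested. ERCC scaling moved the median of all genes to 0.09.

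Over all tested genes, calls in KO2 were 90 higher and 73 lower with ERCC scaling, 29 and 32 without a filter, where 25397 genes were tested, 189 and 265 with DESeq2, and 122 to 341 higher and 148 to 350 lower when 1 library was left out, fewest without WT replicate 1. Of the NuRD core, calls were 0 higher and 0 lower with ERCC scaling and without a filter, 0 and 2 with DESeq2 and with thinning, and 0 to 1 higher and 0 to 2 lower with 1 library left out. Of the pluripotency genes, 0 were lower with ERCC scaling, 1 was higher with DESeq2 and with at least 10 counts in every sample, and 0 to 1 were higher with 1 library left out. Zfp296 lost its call without a filter (log2 fold change 2.35, adjusted p = 0.057). With the longest transcript as length, Sall1 made up 34.7% of the SALL level in WT and 29.7% in KO2, and Sall4 68.3% in KO2.

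The sources used here do not pair the samples by number. Over all tested genes, deviations of same-numbered samples correlated at -0.0066, and a pairing in part of the genes was not tested. With the replicate block, 476 genes were called higher and 474 lower, 2 and 2 of the NuRD core, and 0 members.

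Sall2 and Sall3 had 10 to 26 counts in each library, and leaving out KO2 replicate 1 or 2 moved Sall2 to -0.11 or -0.58 and Sall3 to -0.27 or -0.88. With 2 samples a group, an interval that includes 0 does not show that the lines were alike.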
